A study of Arabidopsis thaliana with 9 samples.

Results

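Cluster 9 of the root nuclei of Arabidopsis thaliana was a group of nuclei in which most listed genes of DNA replication and of replication-coupled histones stood higher than in any other group. It was 1 of 21 numbered clusters of nucleus RNA, and it was taken by its number, together with cluster 9 of 20 clusters of whole cells and cluster 9 of 21 clusters of chromatin accessibility. The nuclei came from roots of 7-day-old plants of the Col-0 accession, with no mutation or transgene given in the labels, and were sorted by flow cytometry after the roots had been chopped and filtered. All clusters share the same pooled libraries, 5 of nucleus RNA and 2 of accessibility, for which ATAC-seq marks open DNA with a transposase. No label describes the whole-cell samples, so their plants, age and preparation are unknown. Each value is 1 average per gene or region and cluster, called a level here and scaled so that each cluster sums to 10000. No value has a replicate, and the clusters were made from the same nuclei, so no test is given and every difference is a description. The number of nuclei in cluster 9 and their depth are unknown, and in such averages a few nuclei with much RNA of a gene cannot be told apart from many with little.

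Before a plant cell copies its DNA, the origin recognition complex (ORC), CDC6 and CDT1 load the ring-shaped MCM helicase onto replication origins. CDC45 and GINS then switch the helicase on, polymerases extend the new strands on the sliding clamp PCNA, and new histones are made to package the copies. E2F transcription factors drive many of these genes and are held back by the retinoblastoma protein RBR1. In roots such cells lie mainly in the meristem at the tip, and cells that leave it can go on copying DNA without dividing, in the endocycle.

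The 3 genes given as markers with the cluster's label are described first, and since they came with the label they are no support for it. TSO2 (AT3G27060), a small subunit of ribonucleotide reductase, the enzyme that makes DNA building blocks, was at 4.73 in cluster 9, against a lowest of 0.0525, a median of 0.321 and a highest of 1.06 in the others. HIS4 (AT2G28740), a histone H4 gene, was at 3.42 in cluster 9, against 0.126, 0.238 and 1.05 in the others. MCM5 (AT2G07690), a subunit of the MCM ring, was at 1.11 in cluster 9, against 0.00405, 0.137 and 0.768 in the others. For all 3 genes cluster 9 lay above every other cluster, by the widest ratio for TSO2 and the narrowest for MCM5. Among 73 listed replication and H3.1 or H4 genes, these 3 among them, 59 were highest in cluster 9. The lists were chosen with earlier results of these data known, so this count is no independent support for the label. Of 18 listed root meristem regulators, 0 were highest in cluster 9, where 10.7% of all genes were, and 7 were at least 2-fold higher than the mean of the others, where 9.82% of all genes were. Their summed level was 10.8 in cluster 9, below the 11.8 of cluster 10.

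Cluster 9 had a broad set of transcripts at a cutoff of 0.5. It held 5706 genes at a level of 0.5 or more, and the other clusters held 3129 to 5664, the most in cluster 17. Above 0 it held 19319 genes, fewer than the 19971 of cluster 11, so this lead depends on the cutoff. Among the 13016 genes that reached 0.5 in any nucleus cluster, 1385 (10.6%) were highest in cluster 9, against 148 to 1064 in each other cluster. The 100 highest genes took 11.2% of the total in cluster 9 and 10.97% to 35.7% in the others. Cluster 9 thus had the most genes at this level and the most genes highest in it of the 21.

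Ratios below are cluster 9 over the mean of the other clusters, with 0.1 added to both levels, unless another is named, so they understate the difference for low genes. Of 7487 genes at 0.5 or more in cluster 9 or in that mean, 1576 (21%) were at least 2-fold higher in cluster 9 and 1463 (19.5%) at least 2-fold lower. Over all 23241 genes, with no lower limit, 9.82% were at least 2-fold higher, 10.7% at least 2-fold lower and 10.7% highest in cluster 9. Counts of list members below cover every listed gene and are read against these last shares.

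Across 13016 genes, cluster 9 was most like cluster 10, in which the mitotic genes were highest, with a Spearman correlation of 0.68 between levels centred per gene. Clusters 8 and 7 followed at 0.57 and 0.54. Nucleus cluster 9 was most like whole-cell cluster 9, at 0.70 over 6416 genes, and next like whole-cell cluster 10 at 0.58. Accessibility per gene of cluster 9 was most like nucleus cluster 9, at 0.43 over 12960 genes, and next like nucleus cluster 10 at 0.36. Between accessibility clusters the order differed. Over 20803 regions, accessibility cluster 9 was most like clusters 8 and 13, at 0.26 each, with cluster 3 at 0.22 and cluster 10 at 0.14. These correlations are across genes or regions, which are not replicates and share the clusters' libraries. How clusters were matched between the tables is not given in the sources used here.

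**Figure D1:**
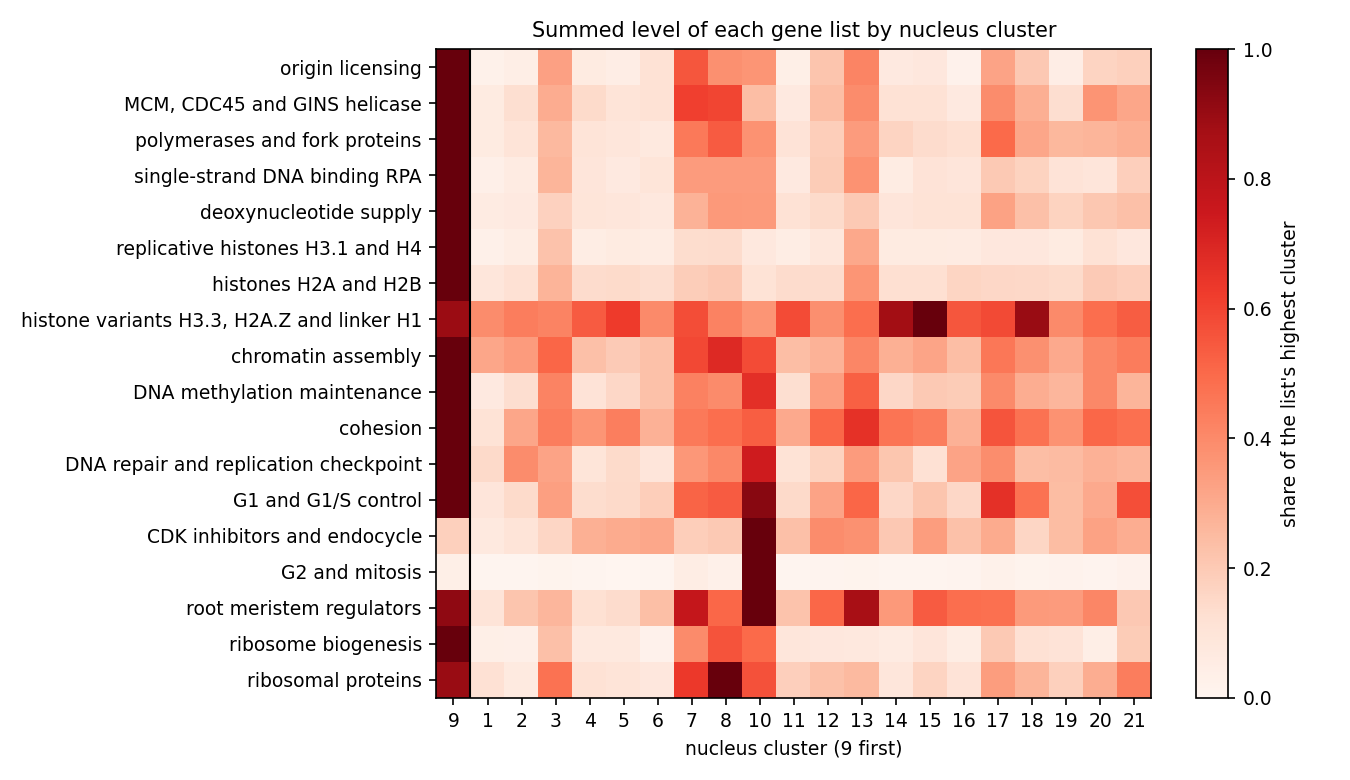
Summed nucleus level of each of 18 gene lists in each of the 21 nucleus clusters, cluster 9 at the left, as a share of the list's highest cluster (colour, 0 to 1). The 5 lists of the replication machinery and both core histone lists are highest in cluster 9, with sums of 4.69 to 69.5 per 10000, while the G2 and mitosis list is highest in cluster 10, at 3.66 in cluster 9 and 102 in cluster 10.

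The loading of replication origins was covered by 11 listed genes, of which 8 were at least 2-fold higher in cluster 9, 0 lower and 7 highest there. Their summed level was 4.69 in cluster 9, against a lowest of 0.110, a median of 0.646 and a highest of 2.60 in the others. Among subunits of ORC, ORC4 (AT2G01120) was at 0.904 in cluster 9, against 0, 0.149 and 0.533 in the others, and ORC3 (AT5G16690) was at 0.899 in cluster 9, against 0, 0.0279 and 0.38 in the others. The subunits were not uniform, as ORC6 (AT1G26840) was at 0.731 in cluster 9 and 0.31 in cluster 20, whereas ORC1B (AT4G12620) was at 0.249 in cluster 9 and 0.251 in cluster 7. The loading factor gene CDT1A (AT2G31270) was at 0.63 in cluster 9 and 0.607 in cluster 7, and its paralogue CDT1B (AT3G54710) was at 0.0675 in cluster 9 and 0.541 in cluster 10. CDC6 (AT2G29680), the other loader, was at 0.384 in cluster 9 and 0.282 in cluster 3.

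Of 13 genes of the helicase (MCM, CDC45 and GINS), 12 were at least 2-fold higher and 11 were highest in cluster 9, with a median log2 ratio of 1.59. MCM6 (AT5G44635) was at 0.746 in cluster 9, against a lowest of 0, a median of 0.0452 and a highest of 0.448 in the others. MCM4 (AT2G16440) was at 0.76 in cluster 9 and 0.415 in cluster 7, and PSF1 (AT1G80190), of GINS, was at 0.615 in cluster 9 and 0.518 in cluster 4. Several members had a near equal in some other cluster. MCM7 (AT4G02060) was at 0.611 in cluster 9 and 0.60 in cluster 8, MCM3 (AT5G46280) was at 0.542 in cluster 9 and 0.534 in cluster 20, and MCM2 (AT1G44900) was at 0.829 in cluster 9 and 1.07 in cluster 20. The member under 2-fold was PSF3 (AT1G19080), of GINS, at 0.689 in cluster 9 and 0.44 in the mean of the others.

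Polymerases and fork proteins followed the same pattern, with 15 of 19 listed genes at least 2-fold higher, 0 lower and 17 highest in cluster 9. PCNA1 (AT1G07370), a sliding clamp gene, was at 1.01 in cluster 9, against a lowest of 0, a median of 0.0304 and a highest of 0.277 in the others. PCNA2 (AT2G29570) was at 0.875 in cluster 9 and 0.457 in cluster 7. Both clamp genes stood clear of every other cluster. ICU2 (AT5G67100), the catalytic subunit of polymerase alpha, which starts each strand, was at 2.0 in cluster 9, against 0.00789, 0.291 and 1.21 in the others. POL2A (AT1G08260), the catalytic subunit of polymerase epsilon, was at 2.48 in cluster 9 and 2.19 in cluster 17, so its lead was small. Among genes of the clamp loader, RFC4 (AT1G21690) was at 0.63 in cluster 9 and 0.282 in cluster 20 and RFC5 (AT1G77470) was at 0.664 in cluster 9 and 0.316 in cluster 7, while RFC1 (AT5G22010) was at 0.893 in cluster 9 and 0.935 in cluster 19. LIG1 (AT1G08130), the ligase that joins new fragments, was at 0.896 in cluster 9 and 0.849 in cluster 8. POLD4 (AT1G09815), a small subunit of polymerase delta, was not higher, at 0.0935 in cluster 9 and 0.14 in the mean of the others.

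Genes of the single-strand binding protein RPA differed by paralogue. Of 9 genes, 6 were at least 2-fold higher and highest in cluster 9. RPA1D (AT5G61000), a large subunit, was at 1.99 in cluster 9, against 0, 0.0393 and 0.679 in the others, and RPA1B (AT5G08020) was at 0.769 in cluster 9, against 0, 0.0215 and 0.321 in the others. Their paralogue RPA1A (AT2G06510) was at 0.183 in cluster 9 and 0.152 in the mean of the others, rank 8 of 21. The middle subunit genes RPA2 (AT2G24490) and RPA2B (AT3G02920) stood at 0.987 in cluster 9 and 0.465 in cluster 13 for RPA2, and at 1.2 in cluster 9 and 0.72 in cluster 10 for RPA2B, so the paralogues differed in which cluster came next.

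For the supply of DNA building blocks, 5 of 8 listed genes were at least 2-fold higher and highest in cluster 9. Beside TSO2, RNR1 (AT2G21790), the large subunit of ribonucleotide reductase, was at 2.26 in cluster 9, against 0.0111, 0.154 and 0.968 in the others. RNR2A (AT3G23580), a paralogue of TSO2, was at 0.408 in cluster 9 and 0.565 in cluster 4. TK1A (AT3G07800), a thymidine kinase, was at 1.38 in cluster 9 and 0.899 in cluster 10, and DUT1 (AT3G46940), which clears uracil nucleotides, was at 0.527 in cluster 9 and 0.347 in cluster 8. The thymidylate synthase genes split, with THY-2 (AT4G34570) at 0.709 in cluster 9 and 0.319 in cluster 17, and THY-1 (AT2G16370) at 0.824 in cluster 9 and 1.31 in cluster 17.

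Counting the 5 lists above with the H3.1 and H4 histone list, 59 of 73 genes were at least 2-fold higher in cluster 9, 0 at least 2-fold lower and 59 highest there, with a median log2 ratio of 1.76, against a median of 0 over all genes. Of the 73, 50 reached 0.5 in cluster 9 or in the mean of the others. Among these, 47 were at least 2-fold higher in cluster 9, where 21% of all genes past that limit were. Most of the 50 passed the limit only through their level in cluster 9, so the count of 47 is largely set by the limit and is no support for the label. The other genes of the 73 did not reach 0.5, among them CDC45 (AT3G25100), at 0.213 in cluster 9 and 0.0567 in cluster 17.

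The H3.1 and H4 list had the largest median ratio of the 18 lists of functions. All 13 genes listed for H3.1 and H4, the forms placed on newly copied DNA, were at least 2-fold higher and highest in cluster 9, with a median log2 ratio of 3.32. Their summed level was 60.4 in cluster 9, against a lowest of 1.68, a median of 4.19 and a highest of 18.5 in the others. The gene table describes 5 of them as H3.1, names HIS4 and leaves the other 7 without a name. Among the H3.1 genes, AT1G09200 was at 7.09 in cluster 9, against 0.0258, 0.388 and 2.06 in the others. AT5G65360 was at 6.46 in cluster 9, against 0.0604, 0.409 and 1.58 in the others, and AT5G10400 was at 6.07 in cluster 9, against 0.0365, 0.177 and 1.55 in the others. Each of these stood over the highest of the others by more than the whole range of the others. AT3G27360 was at 4.79 in cluster 9 and 1.69 in cluster 13, and AT5G10390 was at 1.54 in cluster 9 and 0.232 in cluster 3. Of the unnamed genes of the list, AT1G07820 was at 7.71 in cluster 9 and 3.31 in cluster 13, AT5G59690 at 6.4 in cluster 9 and 1.34 in cluster 13, and AT1G07660 at 0.916 in cluster 9 and 0.635 in cluster 20. For 11 of the 13 genes the next highest cluster was cluster 13. Copies of a histone gene are nearly identical, so reads could be split among them in counting, and values of single copies are less certain than the sum.

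Of 19 genes listed for H2A and H2B, 16 were at least 2-fold higher and highest in cluster 9, with a median log2 ratio of 2.16. Their summed level was 69.5 in cluster 9, against 6.11, 9.94 and 25.4 in the others. HTA6 (AT5G59870), an H2A.W variant of heterochromatin, had the largest log2 ratio of any gene at a level of 1 or more in cluster 9, 3.86, and was at 8.92 in cluster 9, against 0.0375, 0.277 and 2.53 in the others. Another H2A.W gene, HTA7 (AT5G27670), was at 5.0 in cluster 9 and 2.16 in cluster 13. A further H2A.W gene, HTA12 (AT5G02560), was low, at 0.0207 in cluster 9 and 0.108 in the mean of the others. HTA12 thus did not share the pattern of the other H2A.W genes named here. HTA3 (AT1G54690), named GAMMA-H2AX in the gene table, codes for an H2A.X variant whose protein is modified at DNA breaks, and was at 4.18 in cluster 9, against 0.0526, 0.287 and 0.922 in the others. HTB2 (AT5G22880), an H2B gene, was at 6.18 in cluster 9, against 0.0552, 0.225 and 1.6 in the others. HTA13 (AT3G20670), an H2A gene, was at 6.31 in cluster 9 and 2.36 in cluster 13.

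Variants that are placed outside replication were mixed. The H3.3 gene AT4G40030 was at 2.06 in cluster 9 and 1.98 in the mean of the others and the H3.3 gene AT4G40040 at 3.6 in cluster 9 and 3.56 in the mean of the others, rank 10 of 21 each. Another H3.3 gene, AT5G10980, was at 4.38 in cluster 9 and 2.33 in cluster 14. Genes of H2A.Z, a variant placed at promoters, were split: HTA8 (AT2G38810) was at 2.17 in cluster 9, against 0.00843, 0.0718 and 0.656 in the others, HTA11 (AT3G54560) was at 2.6 in cluster 9 and 1.63 in cluster 10, and HTA9 (AT1G52740) was at 0.745 in cluster 9 and 0.713 in the mean of the others. The stress-related linker histone gene HIS1-3 (AT2G18050) was at 0.491 in cluster 9 and 3.47 in the mean of the others, a log2 ratio of -2.59. Of the 9 listed variants, 5 were at least 2-fold higher and 1 lower.

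**Figure D2:**
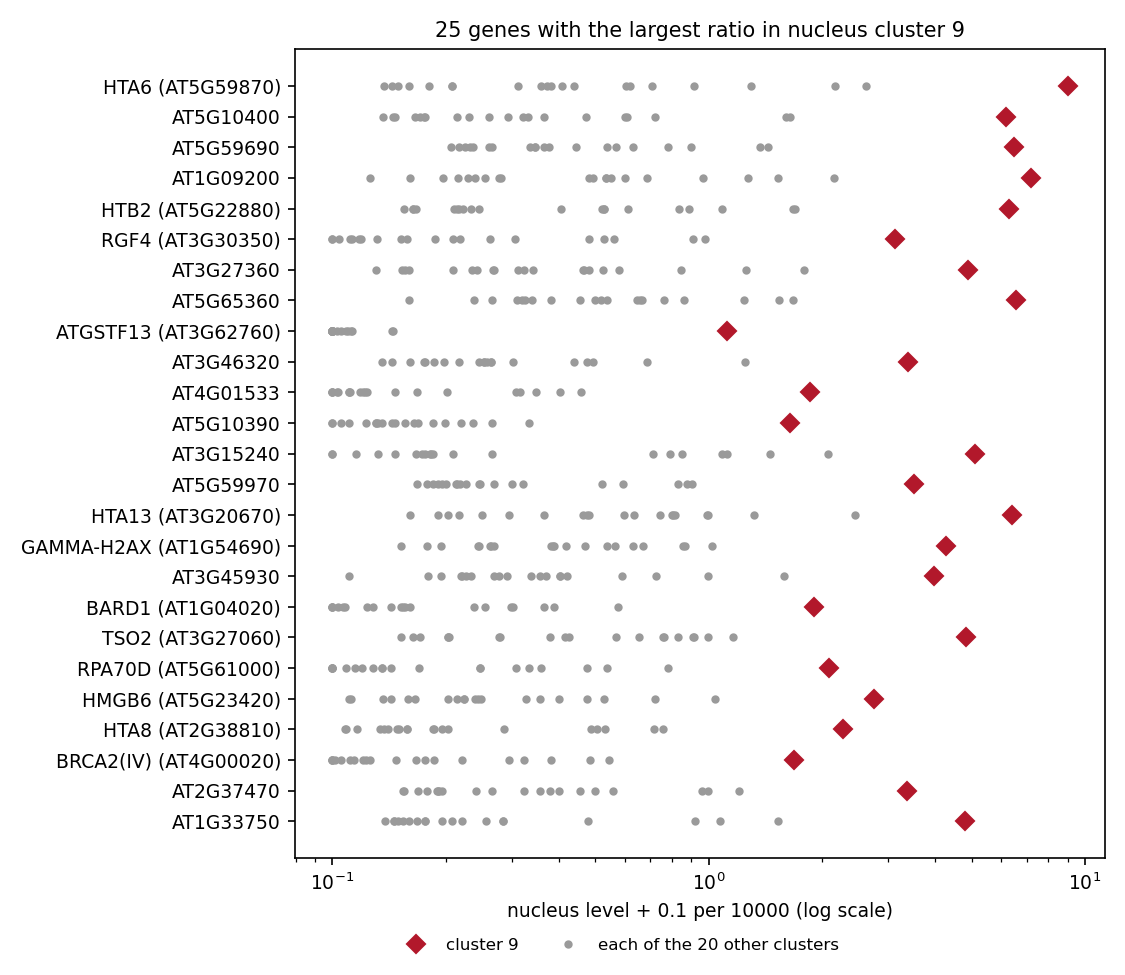
Nucleus level plus 0.1 per 10000 (log scale) of the 25 genes with the largest log2 ratio in cluster 9, among genes at 1 or more there. Diamonds are cluster 9 and grey points are each of the 20 other clusters; cluster 9 lies beyond all others in every row, by least for AT1G33750, at 4.69 in cluster 9 and 4.66 in cluster 7.

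Of the 25 genes with the largest ratio 15 were histone genes, and the others were of mixed kinds. RGF4 (AT3G30350), a peptide precursor named root meristem growth factor 4, was at 3.02 in cluster 9, against 0, 0.0725 and 0.876 in the others. ATGSTF13 (AT3G62760), a glutathione transferase gene, was at 1.02 in cluster 9, against 0, 0 and 0.0447 in the others. HMGB6 (AT5G23420), a chromatin protein gene, was at 2.66 in cluster 9 and 0.94 in cluster 13. AT3G15240 and AT4G01533, without a name in the gene table, were at 5.01 in cluster 9 and 1.97 in cluster 10 for AT3G15240, and at 1.76 in cluster 9 and 0.357 in cluster 8 for AT4G01533. At a level of 1 or more, 111 of 2175 genes (5.1%) stood at 2-fold or more over every other cluster. The next highest cluster was 10 for 31 of them, 13 for 30 and 8 for 21. Of the 111, 26 were in the histone lists and 69 in none of the 18 lists of functions.

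Chromatin assembly genes were higher in part. Of 14 listed, 8 were at least 2-fold higher, 0 lower and 9 highest in cluster 9. FAS1 (AT1G65470), of the assembly factor CAF-1 that places H3.1 behind the fork, was at 1.13 in cluster 9, against 0, 0.155 and 0.555 in the others, and TSK (AT3G18730), which binds newly placed histones, was at 0.527 in cluster 9 and 0.234 in cluster 13. NAP1;1 (AT4G26110), a histone chaperone gene, was at 3.2 in cluster 9 and 2.0 in cluster 8. Genes of the chaperone FACT, which also acts in transcription, stayed under 2-fold, with SSRP1 (AT3G28730) at 0.618 in cluster 9 and 0.445 in the mean of the others and SPT16 (AT4G10710) at 0.782 in cluster 9 and 0.547 in the mean of the others. ATXR5 (AT5G09790) and ATXR6 (AT5G24330), methyltransferases that mark newly placed H3.1, were at 0.419 in cluster 9 and 0.226 in cluster 10 for ATXR5, and at 0.333 in cluster 9 and 0.49 in cluster 13 for ATXR6.

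Copying of DNA methylation was represented by 11 genes, 6 of them at least 2-fold higher and highest in cluster 9. MET1 (AT5G49160), which copies CG methylation onto the new strand, was at 2.71 in cluster 9, against 0, 0.102 and 1.18 in the others. CMT3 (AT1G69770), which maintains CHG methylation, was at 2.22 in cluster 9, against 0, 0.0974 and 0.936 in the others. VIM1 (AT1G57820) and VIM3 (AT5G39550), which bind DNA methylated on a single strand, were at 1.38 in cluster 9 and 1.18 in cluster 10 for VIM1, and at 1.32 in cluster 9 and 0.47 in cluster 3 for VIM3. Cluster 10 was the next highest for MET1, CMT3, VIM1, KYP (AT5G13960) and DDM1 (AT5G66750). The demethylase genes were not higher, with ROS1 (AT2G36490) at 0.216 in cluster 9 and 0.265 in the mean of the others and DME (AT5G04560) at 1.14 in cluster 9 and 1.46 in the mean of the others.

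Cohesion and repair genes were also among the high ones. Of 8 cohesion genes, 5 were at least 2-fold higher, 0 lower and 6 highest in cluster 9. SMC1 (AT3G54670) and SMC3 (AT2G27170), arms of the cohesin ring that holds sister chromatids together, were at 2.72 in cluster 9 and 1.86 in cluster 17 for SMC1, and at 2.2 in cluster 9 and 1.28 in cluster 13 for SMC3. CTF18 (AT1G04730), which links cohesion to the fork, was at 1.14 in cluster 9 and 0.706 in cluster 8. Of 19 repair and checkpoint genes, 12 were at least 2-fold higher, 0 lower and 12 highest. BARD1 (AT1G04020) and BRCA1 (AT4G21070), partners in repair of breaks by recombination, were at 1.81 in cluster 9 and 0.475 in cluster 13 for BARD1, and at 1.08 in cluster 9 and 0.24 in cluster 13 for BRCA1. The mismatch repair genes MSH6 (AT4G02070) and MSH7 (AT3G24495) were at 1.13 in cluster 9 and 0.483 in cluster 7 for MSH6, and at 0.581 in cluster 9 and 0.245 in cluster 3 for MSH7. WEE1 (AT1G02970), a kinase that delays the cycle when replication stalls, was at 0.469 in cluster 9 and 0.237 in cluster 13. The regulator of the DNA damage response SOG1 (AT1G25580) was at 0.227 in cluster 9 and 0.162 in the mean of the others, and its target SMR5 (AT1G07500) was listed at 0 in cluster 9. ATM (AT3G48190), the kinase activated by breaks, was at 1.79 in cluster 9 and 3.22 in cluster 16, rank 3 of 21.

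Control of entry into replication was uneven. Of 20 listed G1 and G1/S genes, 9 were at least 2-fold higher, 0 lower and 9 highest in cluster 9. CYCA3;1 (AT5G43080) and CYCA3;2 (AT1G47210), cyclins of the G1/S transition, were at 1.49 in cluster 9 and 0.407 in cluster 13 for CYCA3;1, and at 1.71 in cluster 9 and 0.669 in cluster 3 for CYCA3;2. The E2F gene E2F3 (AT2G36010) was at 0.756 in cluster 9 and 0.376 in cluster 10, and RBR1 (AT3G12280) was at 0.748 in cluster 9 and 0.609 in cluster 8. The D-type cyclins, which start the cycle, were mostly higher elsewhere. CYCD1;1 (AT1G70210) was at 0.647 in cluster 9 and 4.14 in cluster 10 and CYCD3;1 (AT4G34160) was at 0.312 in cluster 9 and 1.28 in cluster 10, while CYCD5;1 (AT4G37630) was highest in cluster 9, at 0.632 in cluster 9 and 0.548 in cluster 13.

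Of 13 genes listed as kinase inhibitors and endocycle factors, 1 was at least 2-fold higher, where 9.82% of all genes were, and 3 were lower, where 10.7% were. The count of lower genes was above its share, but both counts are too small to be read as a lean of the list. The summed level was 3.13 in cluster 9, against a lowest of 1.23, a median of 4.58 and a highest of 17.5 in the others. KRP1 (AT2G23430) was at 0.178 in cluster 9 and 0.801 in the mean of the others, and KRP2 (AT3G50630) was at 0.402 in cluster 9 and 0.914 in the mean of the others. KRP3 (AT5G48820) was the higher one, at 0.237 in cluster 9 and 0.127 in cluster 7. CCS52B (AT5G13840), an activator of protein breakdown in mitosis, was at 0.215 in cluster 9 and 14.9 in cluster 10. CCS52A1 (AT4G22910), a related factor of endocycle onset, was at 0.252 in cluster 9 and 0.201 in the mean of the others.

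Mitotic genes separated cluster 9 from cluster 10. All 24 listed G2 and mitosis genes were at least 2-fold lower in cluster 9 than in cluster 10, where 5.15% of all genes were, with a median log2 ratio of -4.05. Their summed level was 3.66 in cluster 9, against a lowest of 0.275, a median of 0.960 and a highest of 102 in the others. CDC20.1 (AT4G33270), which triggers anaphase, was at 0.502 in cluster 9 and 24.7 in cluster 10. CYCB1;2 (AT5G06150), a mitotic cyclin, was at 0.0762 in cluster 9 and 6.1 in cluster 10, and KN (AT1G08560), of cell plate formation, was at 0.0599 in cluster 9 and 7.04 in cluster 10. CDKB1;1 (AT3G54180), a kinase that acts before mitosis, was nearer, at 0.313 in cluster 9 and 1.07 in cluster 10. Against the mean of all other clusters, 0 of the 24 were at least 2-fold higher, 6 were lower and 0 were highest in cluster 9. Cluster 10 set most of that mean, as no other cluster summed above the 5.03 of cluster 7. The sum of cluster 9 lay above the median of the others, so low ratios to this mean are not particular to cluster 9.

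In the reverse direction, all 13 H3.1 and H4 genes, 17 of 19 H2A and H2B genes and 12 of 13 helicase genes were at least 2-fold higher in cluster 9 than in cluster 10, where 4.81% of all genes were. AT5G59690 was at 6.4 in cluster 9 and 0.137 in cluster 10. Methylation genes had a median log2 ratio of 0.21 over cluster 10. Of the 11, 3 were at least 2-fold higher in cluster 9 and 0 were at least 2-fold lower. MET1, at 2.71 in cluster 9 and 1.18 in cluster 10, and CMT3, at 2.22 in cluster 9 and 0.936 in cluster 10, were among the 3.

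**Figure D3:**
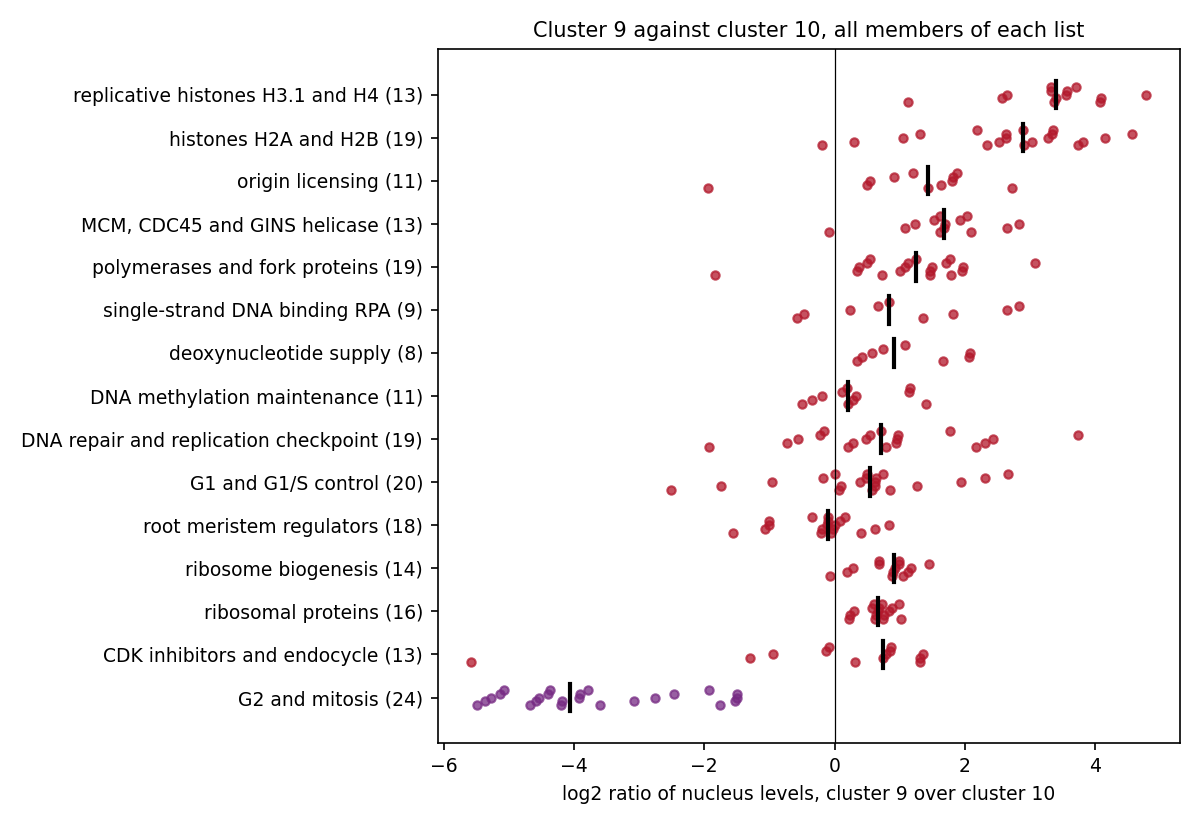
Log2 ratio of the nucleus level in cluster 9 over cluster 10, with 0.1 added to both, for every member of each gene list (points; number of genes in parentheses; black bar, list median). H3.1 and H4 genes lie to the right with a median of 3.39, and all 24 G2 and mitosis genes lie to the left, from -5.48 to -1.50.

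Cluster 13 held the next highest level of most histone genes, and was compared for that reason, after its values had been seen. All 13 H3.1 and H4 genes were at least 2-fold higher in cluster 9 than in cluster 13, where 13.1% of all genes were, with a median log2 ratio of 1.62. Ribosome biogenesis genes differed more, with 12 of 14 at least 2-fold higher in cluster 9 than in cluster 13 and a median of 3.07. Against cluster 8, histone genes differed more than ribosome genes. All 13 H3.1 and H4 genes were at least 2-fold higher in cluster 9 than in cluster 8, where 4.92% of all genes were, but 1 of 14 ribosome biogenesis genes and 0 of 16 ribosomal protein genes were.

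Genes that build ribosomes were high in cluster 9. Of 14 ribosome biogenesis genes, 13 were at least 2-fold higher than the mean of the others, 0 lower and 12 highest in cluster 9, with a median log2 ratio of 2.36. NOP56 (AT1G56110), of the nucleolar particles that modify ribosomal RNA, was at 9.76 in cluster 9, against 0.187, 0.548 and 4.53 in the others. NUC1 (AT1G48920), nucleolin, was at 9.45 in cluster 9, against 0.243, 1.03 and 4.99 in the others. The fibrillarin genes FIB1 (AT5G52470) and FIB2 (AT4G25630), whose proteins methylate ribosomal RNA, were at 4.42 in cluster 9 and 2.52 in cluster 8 for FIB1, and at 3.92 in cluster 9 and 2.81 in cluster 8 for FIB2. Cluster 8 was the next highest cluster for each of these 4 genes. All 16 ribosomal protein genes were at least 2-fold higher than the mean of the others, but 3 were highest in cluster 9, among them RPL5A (AT3G25520), at 6.61 in cluster 9 and 6.19 in cluster 8. RPL3A (AT1G43170) was at 6.98 in cluster 9 and 9.33 in cluster 8. Summed over the list, ribosomal protein genes were at 75.5 in cluster 9 and 84.4 in cluster 8.

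Root meristem regulators were present but none was highest in cluster 9. Of 18 listed, 7 were at least 2-fold higher than the mean of the others and 1 was lower. PLT3 (AT5G10510), of the PLETHORA factors that maintain root stem cells, was at 2.52 in cluster 9, against 0.0072, 0.152 and 2.52 in the others, with cluster 10 the highest. PLT1 (AT3G20840) was at 0.294 in cluster 9 and 0.599 in cluster 7, PLT2 (AT1G51190) at 0.378 in cluster 9 and 0.386 in cluster 10, and BBM (AT5G17430) at 0.394 in cluster 9 and 0.438 in cluster 7. PLT3 and PLT2 thus reached close levels in clusters 9 and 10, and cluster 7 was highest for PLT1 and BBM. Of the 18 regulators, 0 were at least 2-fold higher in cluster 9 than in cluster 10, where 4.81% of all genes were. At least 2-fold lower in cluster 9 than in cluster 10 were 4 of them, where 5.15% of all genes were. AN3 (AT5G28640), a growth coactivator, was at 2.73 in cluster 9 and 2.86 in cluster 13. UPB1 (AT2G47270), which promotes the exit from division, was at 0.0967 in cluster 9 and 0.582 in the mean of the others, a log2 ratio of -1.79.

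The genes with the lowest ratios included some that were very high in few other clusters. The 15 genes with the lowest ratio, among those at 2 or more in the mean of the others, had log2 ratios from -4.17 to -3.26, and their highest cluster was 16 for 7 of them and 19 for 3. AAP2 (AT5G09220), an amino acid permease gene, was at 0.243 in cluster 9, against 0.266, 0.602 and 104 in the others. CASP1 (AT2G36100), of the Casparian strip, was at 0.339 in cluster 9, against 0.128, 0.415 and 93.3 in the others, and PER64 (AT5G42180), also of the strip, was at 0.149 in cluster 9, against 0.0901, 0.185 and 57 in the others. EXPA7 (AT1G12560), of root hairs, was at 0.215 in cluster 9, against 0.158, 0.285 and 30.7 in the others, and RHS13 (AT4G02270) was at 0.473 in cluster 9, against 0.426, 0.825 and 66.8 in the others. For CASP1, PER64 and EXPA7 cluster 9 was thus close to the median of the others, so their low ratios to the mean are not particular to cluster 9. With the median of the other clusters in place of the mean, 387 genes were at least 2-fold lower in cluster 9, not 1463.

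Markers of other cell types were at mixed levels. Of 59 marker genes of 9 root cell types, 8 reached 0.5 in cluster 9, 6 were at 0 and 1 was highest there, AT1G62500, at 0.142. Over all 23241 genes, 5706 reached 0.5 in cluster 9 and 19319 were above 0, so markers at 0 were no more frequent than other genes at 0. Sums of 3 marker lists lay below the median of the other clusters. Endodermis markers summed to 1.41 in cluster 9, against a lowest of 0.903, a median of 1.81 and a highest of 295 in the others, xylem markers to 0.395 against 0.131, 0.479 and 82.6, and root hair markers to 3.97 against 2.44, 4.39 and 298. The other 6 sums lay above that median. Non-hair epidermis markers summed to 3.24 in cluster 9, against 0.325, 0.777 and 23.0 in the others, phloem markers to 1.33 against 0.117, 0.266 and 29.8, and root cap markers to 0.249 against 0, 0.0147 and 2.37. Cortex markers summed to 0.209 in cluster 9, against 0, 0.0476 and 1.22 in the others, pericycle markers to 1.88 against 0.654, 1.53 and 36.8, and stele markers to 3.93 against 0.824, 3.21 and 21.4. None of the 9 sums was the highest of the 21 clusters. The markers at 0 in cluster 9 included PP2-A1 and NAC086 of the phloem list, SKOR of the pericycle list, and CESA8 and MYB46 of the xylem list. They were named for their value of 0, and the phloem and pericycle sums still lay above the median of the others. A few tissue regulators were among the higher markers. The epidermal regulator WER (AT5G14750) was at 2.5 in cluster 9 and 2.66 in cluster 7. The vascular regulator LHW (AT2G27230) was at 1.23 in cluster 9 and 1.8 in cluster 21. Another, ATHB8 (AT4G32880), was at 1.08 in cluster 9 and 10.8 in cluster 21. The part of other cell types in the results above was not tested.

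In whole cells the histone and ribosomal protein genes were high in cluster 9 as well. Among 4198 genes at 0.5 or more in cluster 9 or in the mean of the other 19 clusters, 711 (16.9%) were at least 2-fold higher and 691 (16.5%) at least 2-fold lower. Among 3053 genes past that limit in both tables, 457 were higher in both and 410 lower in both. The 457 made up 29.0% of the nucleus list and 64.3% of the whole-cell list. Those shares are over each full list, including any genes under the limit in the other table. Higher in nuclei and lower in whole cells were 0 genes, and 1 was lower in nuclei and higher in whole cells. The H3.1 gene AT5G10400 had the largest log2 ratio in whole cells, 5.35, at 13.2 in whole-cell cluster 9 and 0.987 in whole-cell cluster 13. AT5G59690 was at 26 in whole-cell cluster 9 and 3.53 in whole-cell cluster 13, and HTA6 (4.63 on the log2 scale) was at 10.9 in whole-cell cluster 9 and 1.5 in whole-cell cluster 13.

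Most replication genes other than histones had lower ratios in whole cells than in nuclei. PCNA2 was at 1.88 in whole-cell cluster 9 and 0.428 in whole-cell cluster 7, and TSO2 was at 1.3 in whole-cell cluster 9 and 0.396 in whole-cell cluster 10, but MCM5 was at 0.0681 in whole-cell cluster 9 and 0.0578 in whole-cell cluster 8 and POL2A at 0.0496 in whole-cell cluster 9 and 0.0262 in whole-cell cluster 7. The MCM5 and POL2A levels lie below the 0.1 added to both sides, which shrinks such ratios most. Of the 13 helicase genes, 12 were highest in whole-cell cluster 9, where 10.3% of all genes were, and 6 were at least 2-fold higher, where 4.92% of all genes were. Of the 16 ribosomal protein genes, 15 were highest in cluster 9 of whole cells, against 3 in nuclei, with RPL3A at 15.7 in whole-cell cluster 9 and 14.3 in whole-cell cluster 10. The histone-list gene AT3G53650 was at 0.652 in nucleus cluster 9 and 16.7 in whole-cell cluster 9, highest in both tables. The H3.3 gene AT4G40040 was at 16.2 in whole-cell cluster 9 and 17.8 in whole-cell cluster 2, so it was not highest in either table.

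**Figure D4:**
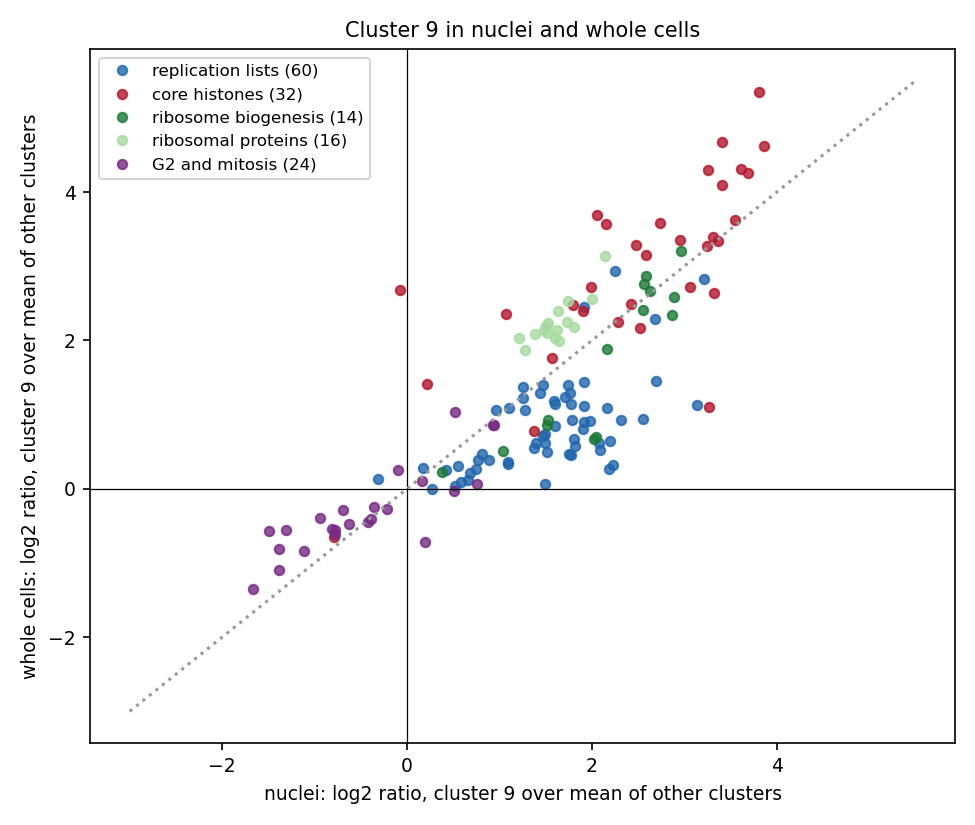
Log2 ratio of cluster 9 over the mean of the other clusters in nuclei (horizontal) and in whole cells (vertical), with 0.1 added to both levels, for every member of 5 groups of genes; the dotted line marks equal ratios. Core histones reach the upper right, at 3.81 and 5.35 for AT5G10400, and most replication genes lie below the line.

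Shares at 2-fold were smaller for chromatin accessibility than for RNA, mainly on the higher side. Of 20801 regions, 2219 (10.7%) were at least 1.5-fold more open in cluster 9 than in the mean of the other clusters and 4032 (19.4%) at least 1.5-fold less open. At 2-fold the shares were 3.47% and 9.07%. In nucleus RNA they were 9.82% and 10.7% over all genes with no lower limit, though with a different added value. Narrow regions gave many of the wide ratios: 23.4% of regions of up to 100 bases were at least 2-fold more open, against 0.459% of those over 2000 bases. The 10 regions with the largest ratio were 19 to 405 bases wide, and 1 to 17 of the other clusters had a value of 0 in them.

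Among regions of 500 bases or more, a limit added after the values had been seen, 3 of the 10 largest ratios are given here, chosen for the genes beneath them. The coordinates are those of the deposited file, on the TAIR10 build, and exons, introns and strand were not looked up. A region on chromosome 5 from 5745664 to 5747094, over BBM, was at 2.43 in cluster 9, against a lowest of 0.0776, a median of 0.341 and a highest of 1.32 in the others. A region on chromosome 5 from 7330284 to 7331487, over AT5G22100 and DPB2 (AT5G22110), a subunit of polymerase epsilon, was at 1.87 in cluster 9, against a lowest of 0.0234, a median of 0.435 and a highest of 0.691 in the others. A region on chromosome 5 from 2244939 to 2245460, over GA20OX3 (AT5G07200), a gibberellin synthesis gene, was at 1.97 in cluster 9, against a lowest of 0.0536, a median of 0.317 and a highest of 1.02 in the others. In each of these 3 regions cluster 9 lay above every other cluster.

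Accessibility per gene was the summed value of regions on the gene or within 500 bases of it. By this measure 1136 of 22872 genes (4.97%) were at least 1.5-fold more open in cluster 9, 2748 (12%) at least 1.5-fold less open, and 4.25% were highest there. Genes at least 2-fold higher in nucleus RNA were more open in 13.8% of cases and less open in 2.16%. Genes at least 2-fold lower in RNA were more open in 0.549% of cases and less open in 31.8%. RNA and accessibility thus leaned the same way over these genes, though most genes higher in RNA passed neither limit in accessibility.

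Of the 73 replication genes above, 10 were at least 1.5-fold more open in cluster 9 and 2 less open. DPB2 had a summed accessibility per gene at 2.43 in cluster 9, against a lowest of 0.394, a median of 0.886 and a highest of 1.36 in the others. ORC4 was at 1.93 in cluster 9, against 0.613, 1.02 and 1.27 in the others, and ORC1B was at 1.75 in cluster 9, against 0.429, 0.895 and 1.49 in the others. These 3 genes were more open in cluster 9 than in any other cluster. Outside the 73 genes, FAS1, at 1.99 in cluster 9 and 1.56 in cluster 3, and RBR1, at 1.8 in cluster 9 and 1.25 in cluster 3, were also most open in cluster 9. The PLETHORA gene BBM was at 4.03 in cluster 9, against 0.329, 1.44 and 2.88 in the others.

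Of the 13 H3.1 and H4 genes and the 19 H2A and H2B genes, 0 were at least 1.5-fold more open in cluster 9 and 0 were highest there, where 4.97% and 4.25% of all genes were, shares that would give few genes in lists of this size. In accessibility AT5G10400 was at 0.48 in cluster 9, against a lowest of 0.331, a median of 0.469 and a highest of 0.64 in the others. HIS4 was at 0.372 in cluster 9, against 0.26, 0.416 and 0.933 in the others. The log2 ratios of the 32 genes ran from -0.58 to 0.37, with list medians of -0.10 for H3.1 and H4 and -0.05 for H2A and H2B, and a median of -0.12 over all genes. Some of these genes share a region, HIS4 and AT2G28720 for example, so the values are not all separate.

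Mitotic genes were more often open in cluster 9 than all genes, of which 4.97% were, although their RNA was lower there than in cluster 10. Of the 24 G2 and mitosis genes, 9 were at least 1.5-fold more open in cluster 9, 0 less open and 6 highest there, with a median log2 ratio of 0.36. CYCB2;4 (AT1G76310), a mitotic cyclin gene, was at 2.58 in cluster 9 and 2.44 in cluster 10 in accessibility. In RNA it was at 0.126 in cluster 9 and 5.15 in cluster 10. In accessibility CDKB1;1 was at 1.96 in cluster 9, against a lowest of 0.409, a median of 0.786 and a highest of 1.41 in the others, and CYCA2;4 (AT1G80370), an A-type cyclin gene, was at 2.12 in cluster 9, against 0.65, 0.932 and 2.03 in the others. CDC20.1 was most open in cluster 10, at 0.95 in cluster 9 and 3.51 in cluster 10, and KN passed neither limit in cluster 9, at 0.418 in cluster 9 and 0.467 in the mean of the others. In cluster 10 itself 13 of the 24 were at least 1.5-fold more open than in the mean of the others, where 7.28% of all genes were, with a median log2 ratio of 0.66.

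**Figure D5:**
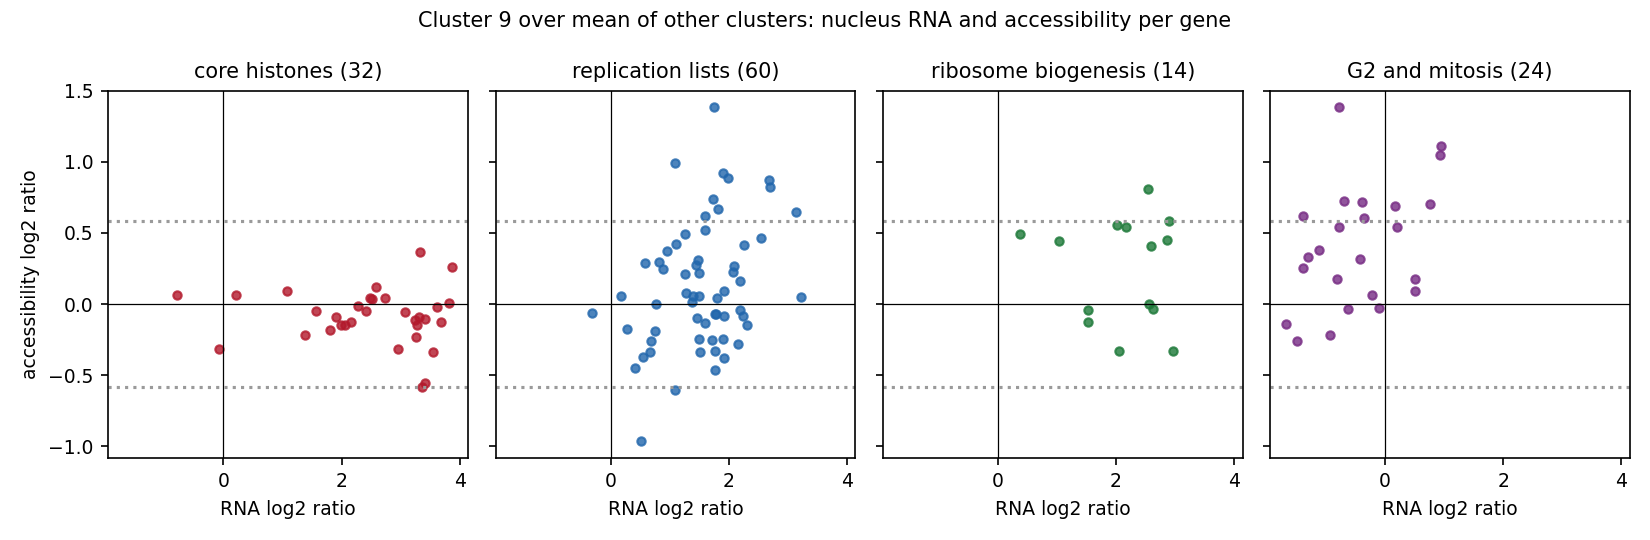
Log2 ratio of cluster 9 over the mean of the other clusters in nucleus RNA (horizontal) and in accessibility per gene (vertical), 1 point per gene, for groups of genes; dotted lines mark 1.5-fold. Most core histone genes lie far to the right, none of the 32 above the upper dotted line, whereas 9 of the 24 G2 and mitosis genes lie above it with no RNA ratio over 0.94.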

How the data were processed

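Per the labels, 5 single-nucleus RNA and 2 single-nucleus ATAC libraries were made from roots of 7-day-old Col-0 plants. The TAIR10 build, Seurat 3.1.5, Signac 0.2.5, Cell Ranger ATAC 1.2 and Cell Ranger 3.1.0 are named in the submitters' processing notes. The authors deposited 1 average per gene or region and cluster over pooled libraries, read here as a score with no depth, so counts and replicate errors are unknown. Treatment of doublets is not given in the sources used here. Bulk libraries of the series were not used, and 1 listed repair gene is not reported here by name.

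Each deposited column was scaled to 10000. As deposited, accessibility columns summed to 10532 to 14125. Ratios had 0.1 added to RNA levels and 0.0481 to accessibility. Gene names and ends came from a RefSeq gene table (TAIR10.1, whose nuclear chromosomes are those of TAIR10) without strand, so the 500 bases were taken at both ends. The rule for named genes took 25 by largest log2 ratio and 15 by ratio to the next cluster, at 1 or more in cluster 9, 15 by lowest ratio, 5 by level, 5 by ratio in whole cells, 10 regions, and members of 27 lists (316 genes) by role. Members and lists were chosen with earlier results of these data known. The calculation was tested on simulated data. Tools were Python 3.11.15, NumPy 2.4.6, pandas 2.3.3 and Matplotlib 3.10.9.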

Additional observations from a re-analysis of the deposited data

How the results depend on the processing

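No paired analysis was possible because the replicates are pooled in 1 average per cluster and no test was made. With 0.5 added in place of 0.1, 734 genes were higher and 686 lower in nucleus cluster 9, 31 of the 73 replication genes were higher, against 47 as reported with the limit of 0.5, and 403 genes were higher in whole cells. With a lower limit of 2 in place of 0.5 these counts were 412, 365, 14 and 296, and 284 genes were highest in nucleus cluster 9. With no limit, 2493 genes were lower and 2481 highest in nucleus cluster 9, and 1143 higher in whole cells. Against the median of the other clusters 387 genes were lower. With a limit 4 times as high, 879 regions were more open. With no limit 59 replication genes were higher. With the limit of 0.5 the count was also 47 with 0.01 added, with the median of the others and without cluster 10 or clusters 8, 10 and 13. Mitotic genes more open numbered 9 to 11 and core histone genes more open 0 under 5 alternatives; these, the fits without clusters 8, 10 and 13 and the limit of 500 bases were chosen after seeing the data. Motifs in promoters were not analysed here for want of sequences. Depth limits all low levels: levels near 0 and narrow regions rest on few molecules, and how many is unknown.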

Other observations

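Several genes outside the lists stood at 2-fold or more over every other cluster, and are named here after their values were seen. Some have names tied to the nucleolus and to ribosomal RNA. NRPA2 (AT1G29940), a subunit of RNA polymerase I, was at 2.13 in cluster 9 and 0.978 in cluster 7. OLI2 (AT5G55920) was at 2.27 in cluster 9 and 1.05 in cluster 8, HDT4 (AT2G27840), a histone deacetylase gene, was at 5.59 in cluster 9 and 2.45 in cluster 8, and AT3G11964, described in the gene table as RRP5, was at 4.78 in cluster 9 and 1.95 in cluster 10. HTR11 (AT5G65350), a histone H3 gene, was at 1.12 in cluster 9 and 0.346 in cluster 13. BRCA2(IV) (AT4G00020), of DNA repair, was at 1.59 in cluster 9 and 0.443 in cluster 13. KAN (AT5G16560), a transcription factor known from organ polarity, was at 2.88 in cluster 9 and 1.33 in cluster 14. The highest value of the whole nucleus column belonged to the long non-coding RNA AT3G06355, at 226 in cluster 9 and 215 in cluster 8. It was also the top gene of clusters 7, 8, 10, 12, 13, 20 and 21, and in whole-cell cluster 9 it was at 0.356. The other genes with the highest levels in cluster 9 were GRP7 (AT2G21660), PYK10 (AT3G09260), AT1G29418 and CCR1 (AT4G39260). GRP7 was at 45 in cluster 9 and 97.3 in cluster 18, and PYK10 at 31.8 in cluster 9 and 346 in cluster 11. AT1G29418 was at 23.8 in cluster 9 and 9.36 in cluster 10, and CCR1 at 23.5 in cluster 9 and 76.4 in cluster 18. Only AT1G29418 of these 4 was highest in cluster 9.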
